A study of Mus musculus with 28 samples.

Results

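The Six3-Six2 region of mouse chromosome 17 was compared between 2 wild type libraries of 4C-seq, the sequenced form of circular chromosome conformation capture. One library read the contacts of the poised enhancer of Six3 (PE Six3), the other those of the Six2 promoter. They were chosen by viewpoint and genotype, and are 2 of the 28 samples of the series and of the 13 libraries with files, with 1 library per viewpoint. Both came from undifferentiated embryonic stem cells (ESC) of the line E14Tg2a, a line of mouse ESC, with wild type genotype. The cell type is labelled 2i+LIF ESC, while the growth protocol describes serum with LIF, and the contact profiles do not settle which medium was used. One further library per viewpoint, from cells of the same line that carry the deletion labelled del36, is used only to show how far a second library from the same viewpoint resembled the first. The labels name the stretch between Six3 and Six2 as holding a TAD boundary, a border between domains of chromosome contact, that is deleted in del36. Those libraries thus differ from wild type in genotype as well, so deletion and library cannot be told apart.

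In 4C-seq, crosslinked chromatin is cut and religated, and each fragment joined to 1 chosen fragment, the viewpoint, is amplified and sequenced, so a fragment's reads stand for how often it lay near the viewpoint. Poised enhancers are elements near developmental genes that are bound by Polycomb proteins and not yet active in ESC. Six3 is a homeobox transcription factor needed to form the forebrain and the eyes, and the related homeobox factor Six2 maintains nephron progenitors in the kidney. The neighbouring genes lie in adjacent domains of chromosome contact. Both were compared over the shared range chr17:84700000-86480000 (mm10), leaving out 10 kb on each side of both viewpoints, which left 1738 kb. With 1 library per viewpoint no test was possible, and no p-value is given. All intervals are 95% intervals for counting error only, and they treat each read as an independent count. Reads amplified by PCR without molecular identifiers are not independent molecules, so the intervals are too narrow even for that error.

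The viewpoint fragments were chr17:85485041-85485766 for PE Six3 and chr17:85689020-85689800 for the Six2 promoter, 204 kb apart. The annotated start of Six3 lies between them, 135 kb right of PE Six3 and 68.6 kb left of the Six2 viewpoint. The Six2 gene is read from the opposite strand and starts 1.16 kb left of its viewpoint. The intergenic stretch between the gene spans, chr17:85626192-85662735, is 36.5 kb long and begins 141 kb from PE Six3 and 26.7 kb from the Six2 viewpoint. The 250 bases before each start are shown because they anchor the comparison at Six3 and set the fragments that can be read there. They were taken from RefSeq for GRCm38.p6, the assembly of mm10, and CG pairs are in capitals. The Six3 stretch is chr17:85620584-85620833 on the plus strand, and the Six2 stretch is chr17:85688255-85688504 on the minus strand.
Six3: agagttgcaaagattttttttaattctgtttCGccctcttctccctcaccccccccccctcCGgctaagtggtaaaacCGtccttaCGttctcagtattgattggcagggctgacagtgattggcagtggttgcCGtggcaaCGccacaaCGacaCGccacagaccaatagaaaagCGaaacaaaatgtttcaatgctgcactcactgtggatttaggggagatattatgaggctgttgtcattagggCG
Six2: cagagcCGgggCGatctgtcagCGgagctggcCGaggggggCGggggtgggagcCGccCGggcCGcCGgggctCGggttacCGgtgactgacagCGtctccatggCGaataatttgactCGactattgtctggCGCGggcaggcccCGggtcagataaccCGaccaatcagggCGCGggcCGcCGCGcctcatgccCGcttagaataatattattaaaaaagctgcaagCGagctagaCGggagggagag
The Six3 stretch held 10 CG, and 37.8% of all 32851 RefSeq mouse promoters of the same length held as many. The Six2 stretch held 26 CG, a number reached by 9.59% of promoters. The NlaIII cut site CATG was absent from the Six3 stretch and occurred 2 times in the Six2 stretch, and 53.9% of promoters held it. The DpnII site GATC occurred 0 times before Six3 and 1 time before Six2, and 41.9% of promoters held it. Both sites read the same on either strand.

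The PE Six3 library held 7730539 reads and the Six2 promoter library 6169568. Of the reads on chromosome 17, 16.3% from PE Six3 and 2.91% from the Six2 promoter fell in the compared range, and the viewpoint fragment itself took 66.3% and 83.9% of all reads. The range therefore held 1172036 reads on 1018 fragments from PE Six3 and 158655 reads on 699 fragments from the Six2 promoter. The median fragment carried 374.5 reads and 48 reads, and the tallest 1.23% and 3.04% of range reads. Libraries are compared below by shares of the range reads of each, or by ratios within a library. The gap in depth still bears on the spread of window levels and on which fragments were seen.

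Signal from PE Six3 was spread over the left of the range and Six3, whereas signal from the Six2 promoter was concentrated between Six3 and its own viewpoint and continued to the right. In 20-kb windows, the highest share from PE Six3 was 6.88% beside the viewpoint, in the window starting at 85460001, followed by 4.25% in the window starting at 85600001, which holds the left part of the Six3 span. From the Six2 promoter the highest windows were 8.11% and 7.58%, those starting at 85620001 and 85600001, which together hold Six3. Of the 44 usable windows left of Six3, 39 had a higher share from PE Six3 and 5 from the Six2 promoter, with a median log2 ratio of 1.80. Of the 43 windows from there to the right end, 4 had a higher share from PE Six3 and 39 from the Six2 promoter, with a median of -1.66. Over all 87 windows, 34 (39.1%) were at least 2 times higher from PE Six3 and 26 (29.9%) at least 2 times higher from the Six2 promoter. Windows on the left are nearer to PE Six3 and windows on the right nearer to the Six2 promoter, so these counts hold distance as well as side.

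**Figure D1:**
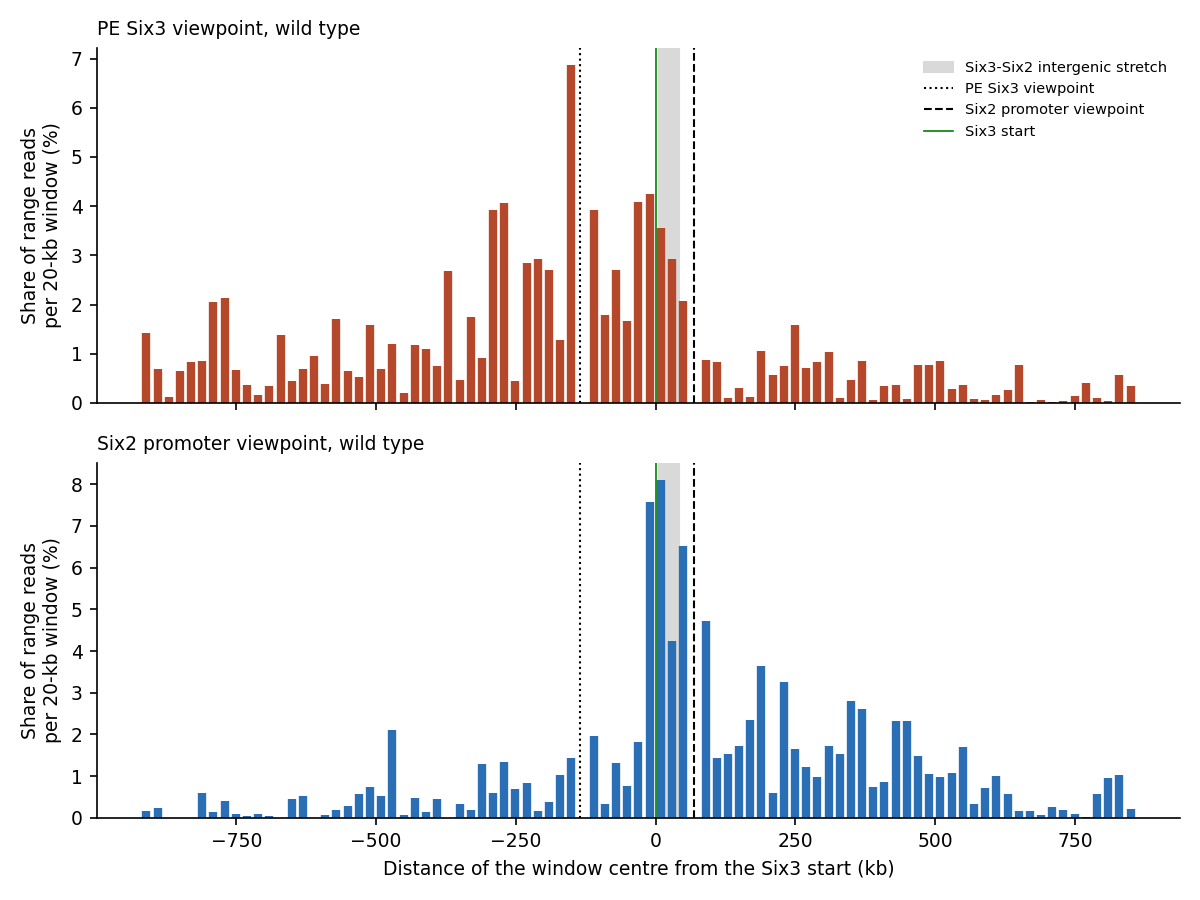
Share of range reads (%) in each 20-kb window of the PE Six3 (top) and Six2 promoter (bottom) wild type libraries, against the distance of the window centre from the Six3 start in kb; the gaps are the windows left out around the viewpoints. The tallest bar from PE Six3 is 6.88% beside its viewpoint, and the tallest pair from the Six2 promoter, 7.58% and 8.11%, flanks the Six3 start.

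The reads of both viewpoints had close median distances, while the far end of those of PE Six3 reached farther. The median distance of a read from its viewpoint was 162 kb for PE Six3 and 169 kb for the Six2 promoter. The distance that held 90% of the range reads was 654 kb for PE Six3 and 543 kb for the Six2 promoter. Within 100 kb lay 27.8% of the PE Six3 reads and 37.9% of the Six2 promoter reads, and within 200 kb lay 55.4% and 54.4%. Beyond 400 kb lay 27.4% and 21.1%. The Six2 promoter thus had the larger share near its viewpoint and the smaller share far from it, while the shares within 200 kb were close.

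Fall with distance was described by the slope of log reads per kb on log distance, over 6 distance bins that double from 10 to 640 kb. With both sides together the slope was -0.60 (standard error of the fit 0.17) for PE Six3 and -0.61 (0.11) for the Six2 promoter, a difference smaller than either error. By side, PE Six3 had slopes of -0.59 on its left and -0.59 on its right, and the Six2 promoter -0.82 on its left and -0.38 on its right, with standard errors of 0.22, 0.16, 0.19 and 0.11. The difference between viewpoints on 1 side is thus about the size of these errors. Over 20-kb windows the same slopes were -0.64, -0.94, -1.13 and -0.62, and with 25 kb left out around the viewpoints that of PE Six3 on its left was -0.091, so its equal sides hold for the reported bins only. From the Six2 promoter the left side was the steeper one in wild type in each of these settings. In its del36 library the bins gave -0.55 (0.26) and -0.29 (0.076), left and right, which kept the order. There 20-kb windows gave -0.17 (0.33) and -0.45 (0.13), which did not. The deleted stretch lies on the left of this viewpoint, where the window starting at 85640001 held 2 reads. The left slopes of the del36 library therefore cannot be compared with wild type. The errors describe the scatter of the bins around the line, not replicates.

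The fall was not steady from either viewpoint. From PE Six3, the 80 to 160 kb bins carried 1768 reads per kb on the left and 2172 on the right, more than the 953 and 1592 reads per kb at 20 to 40 kb. The right-hand bin at 80 to 160 kb holds Six3. From the Six2 promoter, reads on the left numbered 531 per kb at 10 to 20 kb, 496 at 20 to 40 kb and 642 at 40 to 80 kb, and then 94.3 at 80 to 160 kb. The bin at 40 to 80 kb holds Six3 and took 16.2% of the range reads. On the right of the Six2 promoter the values were 445, 161, 172 and 157 reads per kb at the same distances, nearly level from 20 to 160 kb. The left side of the Six2 promoter was therefore flat as far as Six3 and dropped beyond it.

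**Figure D2:**
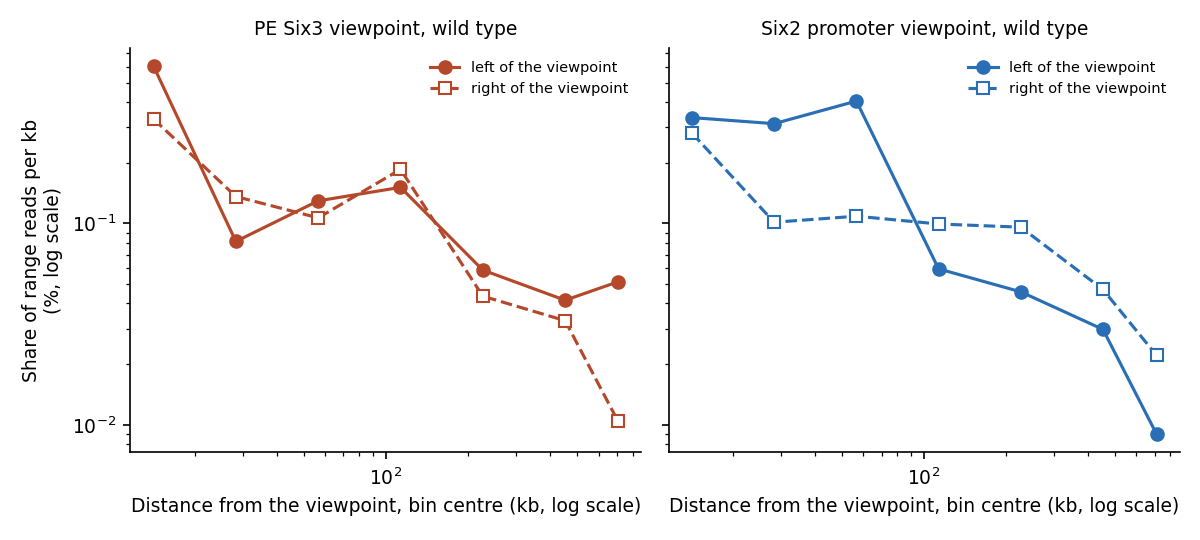
Share of range reads per kb (%, log scale) against distance from the viewpoint (bin centre in kb, log scale) on the left (filled circles) and right (open squares) of each viewpoint in the wild type libraries. The left curve of the Six2 promoter stays level up to the 40 to 80 kb bin (0.405% per kb) and falls to 0.0594% per kb in the next. Both curves of PE Six3 rise again at 80 to 160 kb.

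Over the whole range PE Six3 leaned left and the Six2 promoter was near balance. At matched distance up to 780 kb, PE Six3 had 625722 reads on its left and 504052 on its right over equal usable lengths, a log2 ratio of right over left of -0.31 (interval -0.32 to -0.31), or 1.24 times more on the left. The Six2 promoter had 75581 reads on its left and 78410 on its right up to 790 kb, a log2 ratio of 0.053 (0.039 to 0.067), so its sides were near balance in total. The del36 libraries had 0.26 for PE Six3 and -0.43 for the Six2 promoter. The sign of the total was thus opposite in the del36 library of each viewpoint, and neither total describes its viewpoint in both. The del36 libraries lack the deleted stretch between the viewpoints, so deletion and library cannot be told apart here.

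By distance, the near balance of the Six2 promoter was made of opposite parts. Its left side was higher at 10 to 20, 20 to 40 and 40 to 80 kb, with log2 ratios of -0.26, -1.63 and -1.90, the last meaning 3.73 times more reads on the side of Six3. Its right side was higher at 80 to 160, 160 to 320, 320 to 640 and 640 to 790 kb, with 0.74, 1.15, 0.66 and 1.298. In the del36 library the 40 to 80 kb ratio was -2.23 and the 160 to 320 kb ratio -0.50. Its 20 to 40 kb value of 0.10 cannot be compared, because most of the left side of that bin is deleted, and part of the 40 to 80 kb bin is deleted too. The lean towards Six3 at 40 to 80 kb was therefore present in both libraries, while at 160 to 320 kb the del36 library leaned left. The del36 distances are those of the intact assembly, and across the deleted stretch they overstate the true ones.

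For PE Six3 the sign alternated at short range, with log2 ratios of -0.87 at 10 to 20 kb, 0.74 at 20 to 40 kb, -0.28 at 40 to 80 kb and 0.30 at 80 to 160 kb. It was -0.45 at 160 to 320 kb and -0.34 at 320 to 640 kb. At 640 to 780 kb it was -2.30, or 601 reads per kb on the left and 122 on the right. Up to 640 kb, a limit chosen after the values were seen, the total fell to -0.15 for PE Six3 and was -0.0058 for the Six2 promoter. In the del36 library the outermost bin had -0.13.

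**Figure D3:**
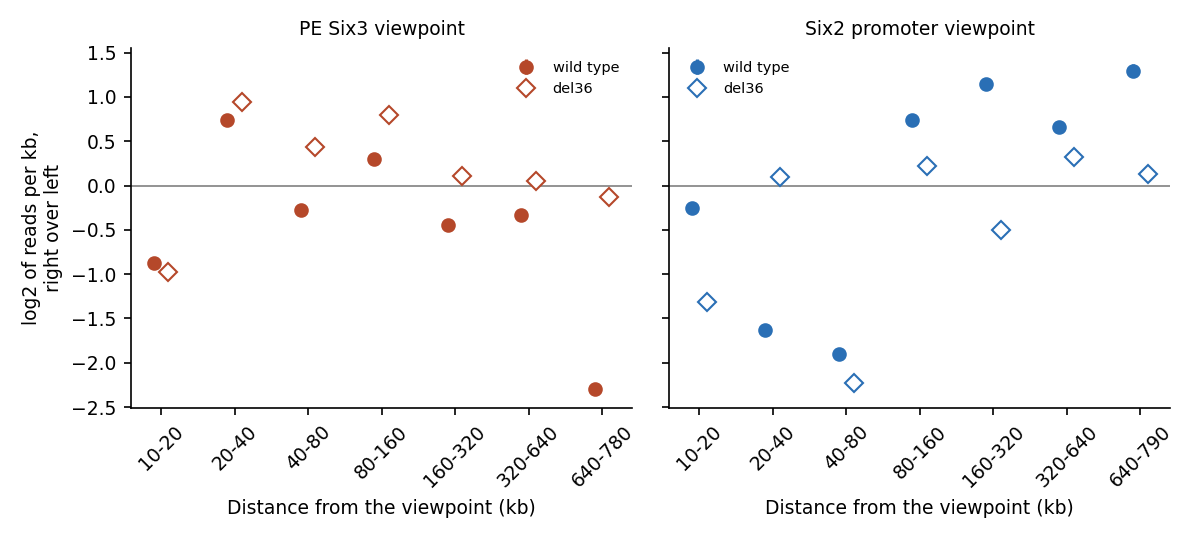
Log2 ratio of reads per kb on the right over the left of each viewpoint in bins of distance (kb), for the wild type library (filled circles) and the del36 library (open diamonds); intervals are smaller than the symbols, and the deleted stretch lowers the del36 values of the side that holds it. From the Six2 promoter, wild type values run from -1.90 at 40 to 80 kb to 1.298 at 640 to 790 kb, and from PE Six3 the lowest is -2.30 at 640 to 780 kb.

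The intergenic stretch was compared with its mirror, the stretch at the same distance on the other side of the viewpoint, and so were 50 kb on its Six3 side and 50 kb on its Six2 side, without the parts left out. The Six2 side then had 29.2 kb from PE Six3 and 16.3 kb, all left of the viewpoint, from the Six2 promoter. From PE Six3, signal fell from 2498 reads per kb on the Six3 side to 1392 in the stretch and 1108 on the Six2 side. The mirrors had 1447, 1537 and 550 reads per kb. The stretch was thus under its mirror, at 0.906 times (log2 -0.14, interval -0.16 to -0.13), while the Six3 side was 1.73 times and the Six2 side beyond the stretch 2.01 times its mirror (log2 1.01, 0.98 to 1.04). Neither value was stable. The log2 ratio in the stretch was 0.60 when fragments were counted in place of reads and -0.39 when the stretch was taken as the 37.2 kb without reads in the PE Six3 del36 library. The ratio beyond it was -0.61 over 100 kb in place of 50 kb.

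Seen from the Six2 promoter, signal went from 620 reads per kb on the Six2 side to 366 in the stretch and rose to 434 on the Six3 side, which lies farther away. The mirrors on the right had 326, 170 and 143 reads per kb. The stretch was 2.15 times its mirror (log2 1.11, 1.06 to 1.15) and the Six3 side beyond it 3.03 times (log2 1.60, 1.56 to 1.64). Over 100 kb the Six3 side had 0.64, and without the tallest fragment of the range 1.24 over 50 kb. From PE Six3 the fall from the Six3 side into the stretch was therefore not matched in the mirror, which rose slightly over the same distances. For the Six2 promoter the mirror fell too between the 16.3 kb used on the Six2 side and the stretch.

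**Figure D4:**
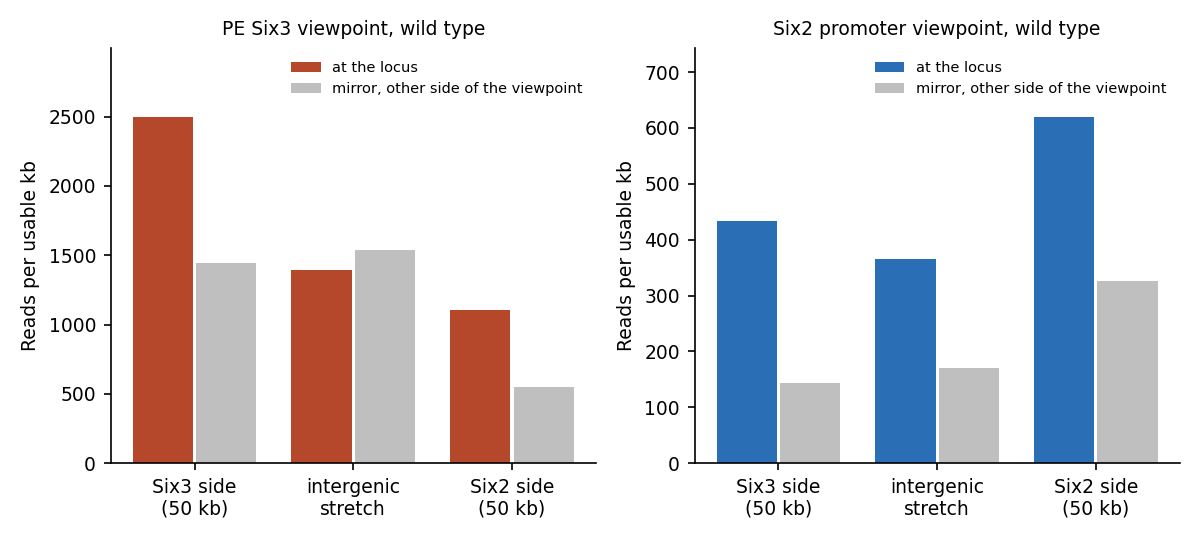
Reads per usable kb in the 36.5-kb intergenic stretch and in 50 kb on either side of it (coloured bars) with the mirror stretches across the viewpoint (grey bars), for the wild type libraries; both axes start at 0 and differ in scale. On the Six2 side only 29.2 kb were used from PE Six3 and 16.3 kb from the Six2 promoter. In the stretch PE Six3 has 1392 against 1537 in the mirror, and the Six2 promoter 366 against 170.

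The places where signal dropped most were then located from the reads in 60 kb on either side of each 20-kb step, in the direction away from the viewpoint. From PE Six3 the inner side was already higher at 85640000, by 1.55 times. Over the next 5 steps, from 85660000 to 85740000, the inner 60 kb had 2.39, 3.43, 4.27, 3.69 and 4.94 times the reads per kb of the outer 60 kb. These steps ranked 15, 9, 6, 8 and 4 of 78. Ranks 1, 2, 3 and 5 lay within Prkce, at 86280000, 86300000, 86180000 and 86320000, with 11.9, 9.85, 5.21 and 4.31 times. Signal from PE Six3 thus fell over Six2 and to its right, but the largest falls lay farther away.

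From the Six2 promoter a large fall, among several in the range, lay on the far side of Six3. At the steps 85580000 and 85600000, the inner 60 kb had 7.17 and 5.08 times the reads per kb of the outer 60 kb, ranks 3 and 8 of 78. Ranks 1 and 2 in wild type lay at the left end of the range, where the outer side held under 4 reads per kb. Ranks 4, 5, 6 and 7 lay at 85300000, 84940000, 85060000 and 86260000, with 6.43, 6.40, 6.29 and 5.57 times. The outer sides there held 13.2, 4.05, 6.7 and 10.8 reads per kb, against 64.6 at 85580000. The deleted stretch lies inside 60-kb sides of the steps from 85580000 to 85720000, which were therefore not compared with the del36 libraries. In the PE Six3 del36 library the steps 85740000, 86280000, 86300000, 86180000 and 86320000 had 1.32, 1.74, 2.39, 4.20 and 2.25 times. In the Six2 promoter del36 library the steps 85300000, 84940000, 85060000 and 86260000 had 1.65, 1.57, 2.87 and 0.735 times. Each of these values was smaller than in wild type.

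Summed to either side of the stretch, PE Six3 had 76.7% of its range reads on the Six3 side, 4.34% in the stretch and 19.0% on the Six2 side. The Six2 promoter had 34.6% on the Six3 side, 8.42% in the stretch and 57.0% on the Six2 side. The usable length was 52.1%, 2.10% and 45.8%. Both viewpoints thus had more of their reads on their own side than that side's part of the length, and more in the stretch. The share that crossed the stretch was for the Six2 promoter 1.82 times that of PE Six3, and the 50 kb next to the stretch on the Six3 side held 13.7% of its range reads. The stretch begins 26.7 kb from the Six2 viewpoint and 141 kb from PE Six3, so this ratio holds distance as well. The order of these shares also depends on the scale, since as shares of all chromosome 17 reads 3.085% crossed from PE Six3 and 1.01% from the Six2 promoter. In the del36 libraries the share that crossed was 28.8% for PE Six3 and 51.6% for the Six2 promoter.

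To compare windows without the effect of distance, each 20-kb window was set against the median of the windows at 0.5 to 2 times its distance from the same viewpoint, on both sides. A window counted as high at 4 times that median with at least 10 reads, and as high from one viewpoint only where the other was at or under its own median. Of 87 windows, 0 were high from PE Six3 (0%) and 3 from the Six2 promoter (3.45%), and 1 was high from the Six2 promoter only (1.15%). That window, chr17:86060001-86080000, lies in Srbd1, a gene for a protein with an RNA-binding domain. It had 856 reads on 5 fragments from PE Six3 and 3687 reads on 14 fragments from the Six2 promoter, with log2 levels of -2.90 and 2.02. The other high windows were chr17:85600001-85620000 over Six3 and chr17:85140001-85160000 in Camkmt, with 12024 and 3337 reads from the Six2 promoter. The Six3 window had log2 levels of 0.66 from PE Six3 and 2.14 from the Six2 promoter.

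The Srbd1 window passed narrowly. It no longer counted as high from the Six2 promoter only when fragments were capped at the 95th percentile, when the mean of the matched windows was used in place of the median, or when fragments were counted in place of reads. Its level in the del36 library of the Six2 promoter was 1.88, and there PE Six3 had 1.13, so that the window was not low from PE Six3 in the second library. The Six3 window had 2.69 in the del36 library of the Six2 promoter, at the distance of the intact assembly.

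At 2 times the median, 12 windows were high from PE Six3 (13.8%) and 18 from the Six2 promoter (20.7%), and 21 (24.1%) and 25 (28.7%) were at or under 1/2 of it. Of these high windows, 6 were high from PE Six3 only, 8 from the Six2 promoter only and 1 from both, and the rest were between 1 and 2 times the median from the other viewpoint. All 6 of PE Six3 lay left of Six3. The highest was chr17:84820001-84840000, which overlaps no protein-coding gene, with 24146 reads from PE Six3 and 225 from the Six2 promoter and levels of 1.92 and -0.66. Of the 8 of the Six2 promoter, 7 lay right of Six3, and 3 of those in or at Srbd1 had levels of 1.98, 2.02 and 1.15. The window high from both was chr17:85620001-85640000, which holds the Six3 start, with levels of 1.02 from PE Six3 and 1.96 from the Six2 promoter, the last set against only 8 matched windows. Such levels rest on under 10 matched windows in 5 windows near each viewpoint, and 6 windows had under 10 reads from the Six2 promoter.

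Few of these windows were high again in the second library of their viewpoint. Of the 6 windows high from PE Six3 only, 1 reached 2 times the median in the PE Six3 del36 library and 4 were above it, where 11.5% and 51.7% of all windows did. Of the 8 high from the Six2 promoter only, 3 and 6 did so in its del36 library, where 9.20% and 54.0% of all windows did. The 3 were the Srbd1 windows starting at 86040001 and 86060001 and the window starting at 86160001, which reaches the start of Prkce's span, with del36 levels of 1.36, 1.88 and 1.29.

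Over all 87 windows, the levels from PE Six3 and the Six2 promoter had a Pearson correlation of -0.07 and a Spearman correlation of 0.07. Levels of the wild type and del36 libraries of 1 viewpoint had 0.12 and 0.22 for PE Six3, and 0.13 and 0.38 for the Six2 promoter. The windows of 1 library are not independent, and these values only describe it. Single windows thus resembled each other little even between libraries of 1 viewpoint. The standard deviation of the log2 level was 1.46 from PE Six3 and 2.29 from the Six2 promoter, the library with fewer reads in the range.

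**Figure D5:**
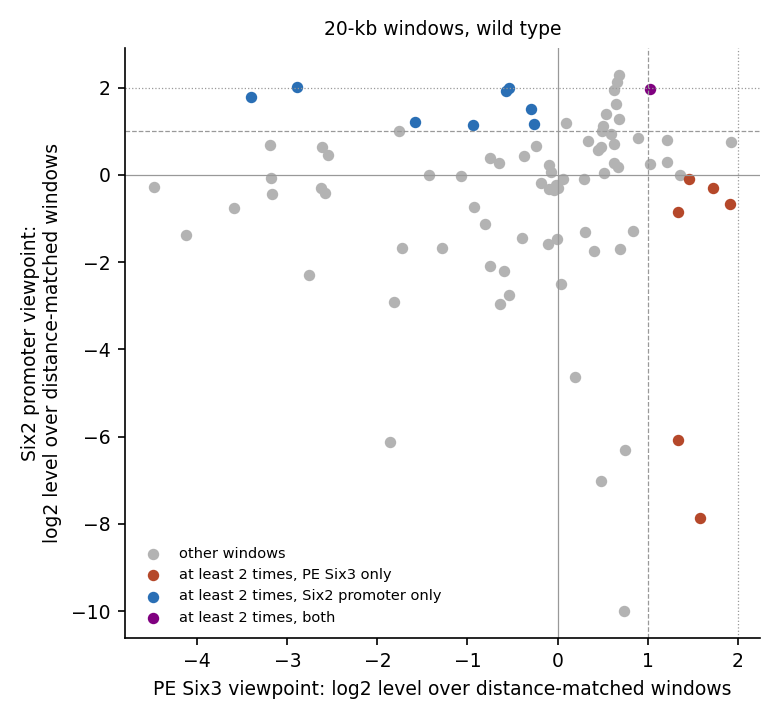
Log2 level of each of the 87 windows over its distance-matched windows, from PE Six3 (horizontal) and from the Six2 promoter (vertical), wild type; lines mark the median (solid), 2 times (dashed) and 4 times (dotted). The 6 windows at least 2 times the median from PE Six3 only and the 8 from the Six2 promoter only lie in opposite corners, 1 window is high from both, and 1 blue point passes 4 times.

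Single fragments were compared next. Of the fragments with reads in the range, 152 were read from both viewpoints, which is 14.9% of those of PE Six3 and 21.7% of those of the Six2 promoter. With at least 10 reads in each library the number was 83, or 9.99% and 19.2%. The wild type and del36 libraries of PE Six3 shared 470 fragments, 46.2% and 31.3% of theirs, and those of the Six2 promoter 351, 50.2% and 41.0%. With at least 10 reads in each, they shared 286 (34.4% and 22.0%) and 93 (21.5% and 13.5%). At that minimum the 2 libraries of the Six2 promoter thus shared little more than the 2 viewpoints did.

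A gene's value took in its span and 5 kb to either side of it. Of 15 genes listed, 11 overlap the range and 10 had reads from both viewpoints. The homeobox genes and the antisense RNA gene Six3os1 all had a larger share from the Six2 promoter, as did 39 of the 43 usable windows from Six3 to the right end. Six3 held 65639 reads (5.60%) from PE Six3 and 19869 reads (12.5%) from the Six2 promoter, a log2 ratio of shares of -1.16 (interval -1.18 to -1.14). Its level over windows at matched distance was 2.38 times from PE Six3 and 5.28 times from the Six2 promoter, so Six3 stood above its distance from both. In the del36 libraries these levels were 4.04 and 8.27 times. They use distances of the intact assembly, and their matched windows take in the deleted stretch, so they cannot be compared with wild type. Six3os1, whose span overlaps that of Six3 and shares its reads, held 6.52% and 11.0%. Six2 held 2.49% from PE Six3, 2.03 times its matched windows, and 7.45% from the Six2 promoter. From its own viewpoint only 7 stretches lie at matched distance, under the minimum of 10 used for genes, so no level is given, and its start lies in the part left out.

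All 5 genes left of Six3 with reads from both viewpoints had the larger share from PE Six3. So did 39 of all 44 usable windows left of Six3, so the count does not set these genes apart from their position. Camkmt, a methyltransferase of calmodulin whose measured stretch ends 21.8 kb from PE Six3, held 31.7% from PE Six3 and 12.1% from the Six2 promoter. Lrpprc, a regulator of mitochondrial messenger RNA, held 3.59% and 0.413%, a log2 ratio of 3.12, the largest of these 10 genes. Slc3a1, a subunit of an amino acid transporter, held 2.10% and 0.310%, with 2.76. The protein phosphatase gene Ppm1b had 1.40 and the peptidase-like gene Prepl 1.12.

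After the correction for distance the 5 genes left of Six3 still stood higher from PE Six3. Their levels ran from 0.13 (Prepl) to 0.51 (Slc3a1) from PE Six3 and from -1.59 (Lrpprc) to -0.08 (Prepl) from the Six2 promoter. The matched windows of the Six2 promoter include those on its right, where its signal beyond 80 kb was higher. In the del36 libraries the level of Lrpprc was -0.23 from PE Six3 and -0.40 from the Six2 promoter, so its difference was far smaller there. The order turned for Ppm1b, with -0.62 from PE Six3 and -0.45 from the Six2 promoter, and for Prepl, with -0.32 and 0.34. Abcg8, a subunit of a sterol transporter, reaches only 5.33 kb into the range, with 347 reads from PE Six3 and 0 from the Six2 promoter, where up to 3 reads would not have been told from 0.

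The genes right of Six2 had the larger share from the Six2 promoter, as did 39 of the 43 usable windows from Six3 to the right end. Srbd1 held 4.34% from PE Six3 and 12.9% from the Six2 promoter, a log2 ratio of -1.57 (interval -1.60 to -1.55). Its level was -0.38 from PE Six3 and 1.28 from the Six2 promoter, and in the del36 libraries 0.03 and 0.74. Prkce, the gene of protein kinase C epsilon, held 3.40% and 8.02%, with levels of -1.43 and -0.23. The scale decides the direction of the shares on this side. As shares of all reads of chromosome 17 the log2 ratios of PE Six3 over the Six2 promoter were 1.32 for Six3, 0.90 for Six2, 0.91 for Srbd1 and 1.25 for Prkce, and in deposited RPM they were 1.40, 0.98, 0.99 and 1.32. On those scales the PE Six3 library is higher at all 4 genes, as it has 16.3% against 2.91% of chromosome 17 reads in the range.

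At the Six3 start the tallest fragments differed between the viewpoints. Within 5 kb on each side, PE Six3 had 29790 reads (2.54%) on 13 fragments and the Six2 promoter 10319 reads (6.50%) on 13 fragments, 2.68 and 5.69 times their matched windows. The promoter stretch printed above lies on the fragment chr17:85620336-85621238, with 339 reads from PE Six3 and 107 from the Six2 promoter, so the start itself was not the peak from either. From PE Six3 the tallest fragment was chr17:85621480-85621742, centred 0.777 kb after the start, with 11090 reads, and the next was chr17:85621747-85622289 with 8115 reads. The Six2 promoter had 0 and 3 reads on these, and the PE Six3 del36 library had 789 on the first. Its own tallest fragments in the 10 kb were chr17:85618382-85619399 with 1873 reads, centred at -1.94 kb from the start, and chr17:85622598-85622710 with 1846 reads, where PE Six3 had 504 and 4542.

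Of 18 fragments over Six3 and its start, 11 had at least 10 reads from both viewpoints, 4 from PE Six3 only, 2 from the Six2 promoter only and 1 from neither. Over the whole range 83 fragments had at least 10 reads from both, 9.99% of the 831 from PE Six3 and 19.2% of the 432 from the Six2 promoter. The gap in depth bears on the fragments seen from 1 viewpoint only. The tallest fragment of the whole range from the Six2 promoter lay just before these 18 fragments in Six3os1, at chr17:85610621-85611201, with 4816 reads, against 1902 from PE Six3 and 4247 in its own del36 library. The tallest from PE Six3, chr17:85470027-85470505, lay 15.1 kb left of its viewpoint with 14392 reads, against 0 from the Six2 promoter and 32 in the PE Six3 del36 library.

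Of the gene starts measured, those of Lrpprc and Ppm1b differed most between the viewpoints. Within 5 kb of the Lrpprc start PE Six3 had 7478 reads and the Six2 promoter 3, and within 5 kb of the Ppm1b start 6813 and 5 reads. The reads of PE Six3 at Ppm1b lay on 1 fragment and those at Lrpprc on 4. The starts of Prepl and Camkmt, which share most of their 10 kb, went the other way from their spans. The Prepl start held 0.244% from PE Six3 and 0.335% from the Six2 promoter, and the Camkmt start 0.115% and 0.335%, with the Six2 promoter's 531 reads on 1 fragment.

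Each viewpoint was also looked for from the other, in the parts left out of all values above. Within 5 kb of the Six2 viewpoint fragment PE Six3 had 4853 reads on 9 fragments, equal to 0.414% of its range reads. Within 5 kb of the PE Six3 fragment the Six2 promoter had 2643 reads on 12 fragments, equal to 1.67% of its range reads.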

How the data were processed

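Chromatin was cut with NlaIII, ligated, cut with DpnII and circularised, per the labels' protocols. The authors deposited 1 file per library with an RPM value per restriction fragment. Mapping used HISAT2 and mm10 according to what is listed per the submitters' processing notes, and no version or filter is given in the sources. Dividing each deposited value by the smallest of its library gave whole reads (100% of values within a tolerance of 0.1). A count test was not run because each viewpoint has 1 library. The tallest fragment was the viewpoint. Fragments longer than 10 kb were not used. Levels used 0.5 added reads. Shares have Wilson intervals and ratios exact conditional (Clopper-Pearson) intervals. Genes came from a RefSeq table of GRCm38.p6 and were named if listed, protein-coding in the range, or in a high window. The window starting at 84820001 and the windows and fragments named at 2 times the median or by height were chosen after their values were seen. Members, lists and rules were chosen with earlier results of these data known. The scripts (Python 3.11.15, numpy 2.4.6, pandas 2.3.3, scipy 1.17.1) were tested on simulated data. Other settings are given in the closing section. A motif search in the stretch was not run, as it needs a genome sequence not used here.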

Additional observations from a re-analysis of the deposited data

Results flagged for a closer look

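Reads in the shared range were also present in libraries whose viewpoints lie on other chromosomes, where 3 reads or fewer were taken as none. From the Gata6 promoter viewpoint in anterior neural progenitor cells there were 313 reads in wild type, 233 in the library labelled TFBS, 299 in that labelled CGI and 571 in that labelled TFBS+CGI. From the Gria1 insertion viewpoint in ESC there were 9 reads in wild type, 475 in TFBS and 19 in CGI. They lay on 2 to 9 fragments per library. The fragment chr17:85609879-85609901 in Six3os1 had 399 reads in the Gata6 TFBS+CGI library, 662 from PE Six3 and 769 from the Six2 promoter. Its part in the Six3 values was not tested.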

How the results depend on the processing

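Of 109 recomputed values of the main measures, 60 stayed within the interval of the reported value (for counts of windows, within 1.5 times), 48 moved and 1, with a reported log2 size of at least 1, reversed. In all, 3 changed sign: that one, the stretch over its mirror from PE Six3 when fragments were counted, and the right over left ratio of the Six2 promoter up to 640 kb. Values are given for PE Six3 first and then the Six2 promoter. With fragments capped at the 95th percentile the right over left log2 ratio was -0.27 and 0.20, the stretch over its mirror -0.068 and 1.01, the part beyond 0.92 and 1.29, the share beyond the stretch 19.7% and 33.5%, and the windows of the Six2 promoter only 0. With the tallest fragment left out the ratio was -0.28 and 0.15, the share beyond 19.2% and 32.5%, and the part beyond 1.24 for the Six2 promoter. Counting fragments, the slope was -0.41 for the Six2 promoter, the ratio -0.12 and 0.18, the stretch 0.60 and 0.55, the part beyond 0.67 and 0.88, the share beyond 23.5% and 38.8%, and the windows of the Six2 promoter only 0. With 25 kb left out the slope of PE Six3 was -0.38, the ratio of the Six2 promoter 0.16, the share beyond 18.8% and 36.1%, and the windows of the Six2 promoter only 2; the part beyond from PE Six3 then has no usable mirror and no value. Over 20-kb windows the slopes were -0.78 and -0.89. Up to 640 kb, chosen after seeing the data, the ratio was -0.15 and -0.0058. With the stretch taken as that without reads in the PE Six3 del36 library (37.2 kb) the stretch had -0.39 and 0.99, the part beyond 1.83 for the Six2 promoter, and the share beyond 18.9% and 36.2%. Over 100 kb the part beyond reversed to -0.61 for PE Six3 and was 0.64 for the Six2 promoter. Of all chromosome 17 reads the share beyond was 3.085% and 1.01%. Windows high from one viewpoint only were 5 and 12 with 10-kb windows, and 6 and 8 at 2 times the median. From the Six2 promoter only, there were 0 with 50-kb windows, 0 with the mean and 0 with matched windows on 1 side, the last chosen after seeing the data. Of 127 recomputed gene values with a reported log2 size of at least 1, 119 kept their sign and 8 reversed, those of Six3 (1.32 and 1.40), Six2 (0.90 and 0.98), Srbd1 (0.91 and 0.99) and Prkce (1.25 and 1.32) as shares of chromosome 17 reads and in deposited RPM. The cause of the other changes was not tested. No paired analysis was possible because each viewpoint has 1 library. Depth limits the Six2 promoter, with a median of 48 reads per fragment, more than PE Six3.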
